A study of Rattus norvegicus with 20 samples.

Results

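Toll-like receptors (TLRs) and the adaptor proteins that sit directly beside them were followed by name through 20 blood cell transcriptomes. The set comprised 10 genes, Tlr1, Tlr2, Tlr3, Tlr4, Tlr6, Tlr7, Tlr8, Tlr9, Myd88 and Ly96, and a probe set was taken for a gene when its annotation held that symbol and no other. Of these 10 genes, 8 had a probe set, 1 each, while Tlr1 and Tlr8 were matched to none and are not analysed here. The 8 stand among 14497 genes named by the 15209 probe sets with a single symbol, and among 28826 probe sets in all. The arrays were single-colour Rat Gene 1.0 ST arrays, and the values are on the log2 scale, so that a difference of 1 is a doubling of the signal. No filter on low values was applied, and all 8 genes were tested.

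The rats were male, 15 weeks old and fasted for 9 h, and 1 array was made per rat. They formed 4 groups of 5 rats. These were WKY/NCrl rats (WKY) fed an energy-dense cafeteria diet of human foods (CAF), LEW/Crl rats (LEW) fed CAF, WKY rats fed standard chow (STD) and LEW rats fed STD, with 7 weeks of the diet in each group. WKY and LEW are inbred strains, so rats of a strain share their genotype and the strains differ at many loci at once. The cell type in the labels is PBMC, that is mononuclear cells of the blood, while the methods tell of monocytes that stuck to plastic after a density gradient. The monocyte genes Lyz2 (lysozyme) and Cd14 (a co-receptor for lipopolysaccharide) had group means of 13.24 to 13.42 and 12.63 to 12.79. Transcripts of other blood cells were measured too, with group means of 12.17 to 12.36 for Cd3e of T cells and 12.06 to 12.32 for Cd79b of B cells. S100a9, which neutrophils express strongly but not alone, had group means of 9.90 to 11.85. Array medians were 6.83 to 6.90. On 4 arrays the mean of 9 heat shock genes was over 0.5 above its mean over the 20 rats, namely WKY rat 1, LEW rat 2 and LEW rat 3 on STD and LEW rat 2 on CAF, and the differences were computed with and without them.

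TLRs are receptors of innate immunity that bind conserved parts of microbes and, in some cases, of damaged host cells. TLR2, TLR4 and TLR6 stand at the cell surface, where TLR2 and TLR6 form a dimer that binds bacterial lipopeptides and TLR4, held together with the small protein MD-2 (encoded by Ly96), binds lipopolysaccharide. TLR3, TLR7 and TLR9 stand in endosomes and bind double-stranded RNA, single-stranded RNA and unmethylated CpG DNA. MyD88 carries the signal of all of these except TLR3 to the IRAK kinases, TRAF6 and NF-κB. In blood the surface receptors are best known from monocytes and neutrophils. TLR7 and TLR9 are best known from B cells and plasmacytoid dendritic cells, and TLR7 also from monocytes.

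The sequences before 4 of the genes are shown because their levels followed different courses between the strains, described further on. Tlr2 and Myd88 were higher in WKY than in LEW rats on STD without overlap, Tlr3 was higher on both diets, and Tlr9 was called on neither. Each stretch is the 250 bases before the RefSeq start of the gene, in the build GRCr8, which is the genome of a BN rat and of neither strain studied. It is written 5′ to 3′ on the strand of the gene, with matches to 4 motifs in capitals.
Tlr2, chr2:171504558-171504807, minus strand: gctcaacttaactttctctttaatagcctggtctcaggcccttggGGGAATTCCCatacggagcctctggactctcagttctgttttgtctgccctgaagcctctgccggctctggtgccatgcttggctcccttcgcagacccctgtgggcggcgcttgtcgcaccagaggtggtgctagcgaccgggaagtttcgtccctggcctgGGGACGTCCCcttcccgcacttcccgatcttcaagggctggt
Myd88, chr8:127956231-127956480, minus strand: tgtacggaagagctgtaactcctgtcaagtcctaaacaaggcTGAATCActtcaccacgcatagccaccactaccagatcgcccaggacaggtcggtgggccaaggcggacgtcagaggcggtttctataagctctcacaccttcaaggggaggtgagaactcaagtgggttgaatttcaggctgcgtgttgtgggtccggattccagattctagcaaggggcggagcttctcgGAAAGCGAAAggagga
Tlr3, chr16:53554666-53554915, plus strand: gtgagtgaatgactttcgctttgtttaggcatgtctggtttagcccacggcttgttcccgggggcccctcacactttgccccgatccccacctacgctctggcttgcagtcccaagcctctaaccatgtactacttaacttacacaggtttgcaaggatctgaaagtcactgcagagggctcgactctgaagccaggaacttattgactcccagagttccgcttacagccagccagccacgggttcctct
Tlr9, chr8:115743157-115743406, plus strand: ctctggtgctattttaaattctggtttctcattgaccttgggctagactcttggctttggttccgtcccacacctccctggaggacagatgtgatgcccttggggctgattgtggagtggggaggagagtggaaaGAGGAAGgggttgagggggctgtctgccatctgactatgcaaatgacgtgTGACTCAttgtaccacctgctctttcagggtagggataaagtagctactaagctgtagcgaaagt
The motifs were searched on both strands, and no 2 matches overlapped. They were GGGA and CC with 4 free bases between them for NF-κB, GAAA and GAAA with 2 free bases between them for the interferon-stimulated response element (ISRE), TGANTCA for AP-1 and GAGGAAG for PU.1, the factor of the myeloid lineage. Tlr2 held 2 NF-κB matches, which began 205 and 42 bases before the start. Myd88 held an AP-1 match 208 bases and an ISRE match 16 bases before the start, and Tlr9 a PU.1 match at 115 and an AP-1 match at 65 bases. Tlr4, not printed, held a PU.1 match 68 bases before the start, read on the opposite strand. The windows of Tlr3, Tlr6 and Tlr7 held none of these letters. Of the 27457 promoter windows in the table, 16.8% held the NF-κB letters, 10.1% those of PU.1, 6.36% those of AP-1 and 3.29% those of the ISRE. A match is a run of letters in a reference genome, and binding was not measured.

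The members' levels were then set out rat by rat, with the strains side by side on each diet.

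**Figure D1:**
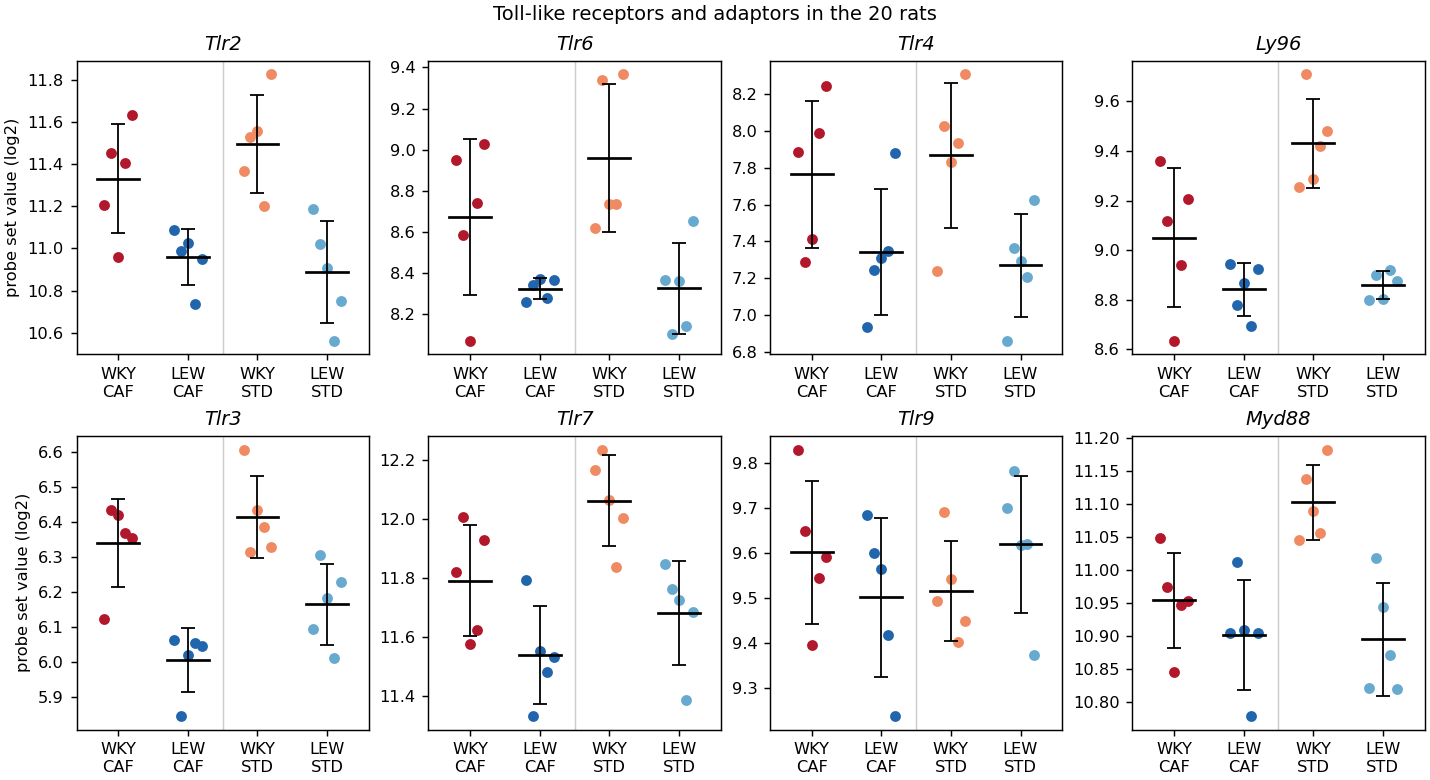
Probe set values (log2, y axis) of the 8 measured genes in the 20 rats, with 1 point per rat, a bar at the group mean and whiskers of 1 SD; each panel has its own y axis, and WKY stands left of LEW on CAF and on STD. Tlr3 was above every LEW rat in all 5 WKY rats on either diet, whereas the strains overlapped for Tlr9 on both.

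The surface receptor Tlr2, which binds lipopeptides, was higher in WKY rats on STD. On CAF its values were 11.21, 11.45, 10.96, 11.41 and 11.64 in WKY rats, against 11.09, 10.99, 11.03, 10.74 and 10.95 in LEW rats. All WKY rats but rat 3 were above the highest LEW rat. On STD the values were 11.37, 11.53, 11.56, 11.20 and 11.83 in WKY rats, against 11.19, 11.02, 10.91, 10.56 and 10.75 in LEW rats, and the strains did not overlap. The difference on STD was 0.61 (standard error (SE) 0.13, adjusted p = 0.00340), that is 1.53-fold. On CAF it was 0.37 (SE 0.13, adjusted p = 0.0938), which did not pass the threshold of an adjusted p under 0.05 used throughout. Bulk RNA cannot tell a larger share of cells that express a gene from more of its RNA in each cell, and this holds for every difference given here. Whether the probes of a gene match the sequences of both strains equally was not tested either.

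Tlr6, the partner of TLR2 in the dimer for diacylated lipopeptides, differed in the same direction. Its values on CAF were 8.95, 8.59, 8.07, 8.74 and 9.03 in WKY rats and 8.26, 8.34, 8.37, 8.28 and 8.37 in LEW rats. The LEW rats lay close together (SD 0.052, n = 5) and the WKY rats far apart (SD 0.38, n = 5), with WKY rat 3 below all LEW rats. On STD the WKY rats had 8.62, 9.34, 8.74, 8.73 and 9.37 and the LEW rats 8.37, 8.11, 8.36, 8.14 and 8.66, so 4 of 5 WKY rats were above the highest LEW rat. The difference was 0.63 on STD (SE 0.17, adjusted p = 0.0154, 1.55-fold) and 0.35 on CAF (SE 0.17, adjusted p = 0.262). Without the 4 arrays of high heat shock genes the difference on STD was 0.66 with an adjusted p of 0.0530.

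Tlr4, the signalling receptor for lipopolysaccharide, passed the threshold on neither diet. On CAF it had 7.89, 7.29, 7.41, 7.99 and 8.24 in WKY rats, against 6.93, 7.24, 7.31, 7.35 and 7.88 in LEW rats. On STD it had 7.24, 8.03, 7.83, 7.94 and 8.31 in WKY rats, against 6.86, 7.36, 7.29, 7.20 and 7.63 in LEW rats. WKY rat 1 on STD, whose heat shock genes were high, lay within the LEW range, while the other 4 WKY rats lay above it. The difference was 0.60 on STD (95% interval 0.17 to 1.03, adjusted p = 0.0691) and 0.42 on CAF (95% interval −0.0096 to 0.85, adjusted p = 0.285). Without WKY rat 1 the adjusted p on STD was 0.0149, and without all 4 arrays of high heat shock genes it was 0.0452.

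Ly96, which encodes the MD-2 subunit that holds lipopolysaccharide against TLR4, had the smallest adjusted p of the 8 genes on STD. The WKY rats had 9.26, 9.71, 9.29, 9.42 and 9.48 there and the LEW rats 8.80, 8.90, 8.80, 8.92 and 8.88. Every WKY rat was above every LEW rat, and the mean was 9.43 ± 0.18 in WKY and 8.86 ± 0.056 in LEW rats (SD, n = 5 each). The difference of 0.57 (SE 0.10) had an adjusted p of 8.83e-04 and amounted to 1.49-fold. On CAF the values were 9.36, 9.12, 8.63, 8.94 and 9.21 in WKY rats, against 8.95, 8.78, 8.87, 8.69 and 8.92 in LEW rats. The strains overlapped there, with WKY rat 3 the lowest of all 10 rats, and the difference of 0.21 (95% interval −0.0098 to 0.43) did not pass (adjusted p = 0.300). Cd14, which hands lipopolysaccharide to the TLR4 complex, differed by −0.16 on CAF (adjusted p = 0.544) and by −0.02 on STD (adjusted p = 0.944).

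WKY rat 3 on CAF had the lowest value of its group for Tlr2, Tlr6, Ly96, Tlr7, Tlr9 and Myd88. It also had the lowest mean of the 14 monocyte markers among all 20 rats, 0.47 below their overall mean. When this rat was left out, 3 more genes passed between the strains on CAF, namely Tlr2 (adjusted p = 0.0277), Ly96 (adjusted p = 0.0355) and Tlr6 (adjusted p = 0.0444). The count on CAF then went up to 4 of 8, against 1 of 8 with all rats, where 7.58% of all probe sets were called. This rat is named for its low values of these genes, so leaving it out raises their differences. The rise is a description and not a test. The share of all probe sets called without this rat is not given here.

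Of the endosomal receptors, Tlr3 for double-stranded RNA was the gene that passed on both diets. On CAF it had 6.12, 6.43, 6.42, 6.37 and 6.36 in WKY rats and 6.06, 5.85, 6.02, 6.06 and 6.05 in LEW rats. On STD it had 6.61, 6.31, 6.43, 6.39 and 6.33 in WKY rats and 6.10, 6.31, 6.18, 6.01 and 6.23 in LEW rats. The strains did not overlap on either diet, although the lowest WKY rat (6.314) and the highest LEW rat (6.307) on STD lay close together. The difference was 0.33 on CAF (SE 0.07, adjusted p = 0.00418, 1.26-fold) and 0.25 on STD (SE 0.07, adjusted p = 0.0255, 1.19-fold). These values lie in the low part of the range of the arrays, which ran from 3.57 to 14.4, and the call on STD was lost on leaving out WKY rat 1 or 3 or LEW rat 1 or 4 of that diet, with adjusted p values of 0.0525 to 0.0713.

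Tlr7, the receptor for single-stranded RNA, was higher in WKY rats on STD, where they had 12.17, 12.24, 12.07, 11.84 and 12.00, against 11.85, 11.76, 11.73, 11.39 and 11.69 in LEW rats. WKY rat 4 lay just below LEW rat 1, and the other WKY rats lay above all LEW rats. The difference was 0.38 (SE 0.10, adjusted p = 0.0183, 1.30-fold), and its adjusted p was 0.0571 without the 4 arrays of high heat shock genes. On CAF the values were 11.82, 12.01, 11.58, 11.63 and 11.93 in WKY rats, against 11.79, 11.33, 11.55, 11.48 and 11.53 in LEW rats, with 3 of 5 WKY rats above all LEW rats. The difference of 0.25 on CAF (SE 0.10) had an adjusted p of 0.163.

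Tlr9, the receptor for CpG DNA, was the member whose strain difference was smallest over both diets. It had 9.83, 9.65, 9.40, 9.54 and 9.59 in WKY rats on CAF, against 9.69, 9.60, 9.56, 9.42 and 9.24 in LEW rats. On STD it had 9.49, 9.69, 9.54, 9.40 and 9.45 in WKY rats, against 9.70, 9.78, 9.62, 9.62 and 9.37 in LEW rats. The strains overlapped on both diets. The difference was 0.10 on CAF (95% interval −0.09 to 0.29, adjusted p = 0.651) and −0.10 on STD (95% interval −0.29 to 0.09, adjusted p = 0.557).

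Myd88, the adaptor shared by all measured TLRs but Tlr3, was higher in WKY rats on STD, by a small margin. There the WKY rats had 11.05, 11.14, 11.09, 11.06 and 11.18 and the LEW rats 10.82, 11.02, 10.94, 10.87 and 10.82. All WKY rats were above all LEW rats, and the difference of 0.21 (SE 0.05, adjusted p = 0.0109) amounted to 1.15-fold. On CAF the WKY rats had 11.05, 10.97, 10.85, 10.95 and 10.95 and the LEW rats 10.90, 11.01, 10.91, 10.78 and 10.90, and only WKY rat 1 was above the highest LEW rat. The difference on CAF was 0.05 (95% interval −0.06 to 0.16, adjusted p = 0.689).

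Counted together, 6 of the 8 genes were called between the strains on STD, all higher in WKY rats, namely Tlr2, Tlr3, Tlr6, Tlr7, Myd88 and Ly96. Among all probe sets 5.88% were called higher in WKY rats on STD, and 11.3% in either direction. On CAF 1 of the 8 was called, Tlr3, against 4.24% of all probe sets called higher and 7.58% in either direction. All 8 differences on CAF were positive, with a median of 0.29, and 4 of the 8 had an unadjusted p under 0.05 and were higher, as were 9.41% of all probe sets. On STD the median over the 8 was 0.48. The median over all probe sets was −0.01 on CAF and −0.0026 on STD. All 5 WKY rats were above all LEW rats for 4 of the 8 genes on STD and for 1 on CAF, against 4.37% and 4.16% of all probe sets. Averaged over both diets, a comparison added after the values were seen, 7 of the 8 were higher in WKY rats, all but Tlr9, with differences of 0.13 (Myd88) to 0.51 (Tlr4), against 8.74% of all probe sets called higher.

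**Figure D2:**
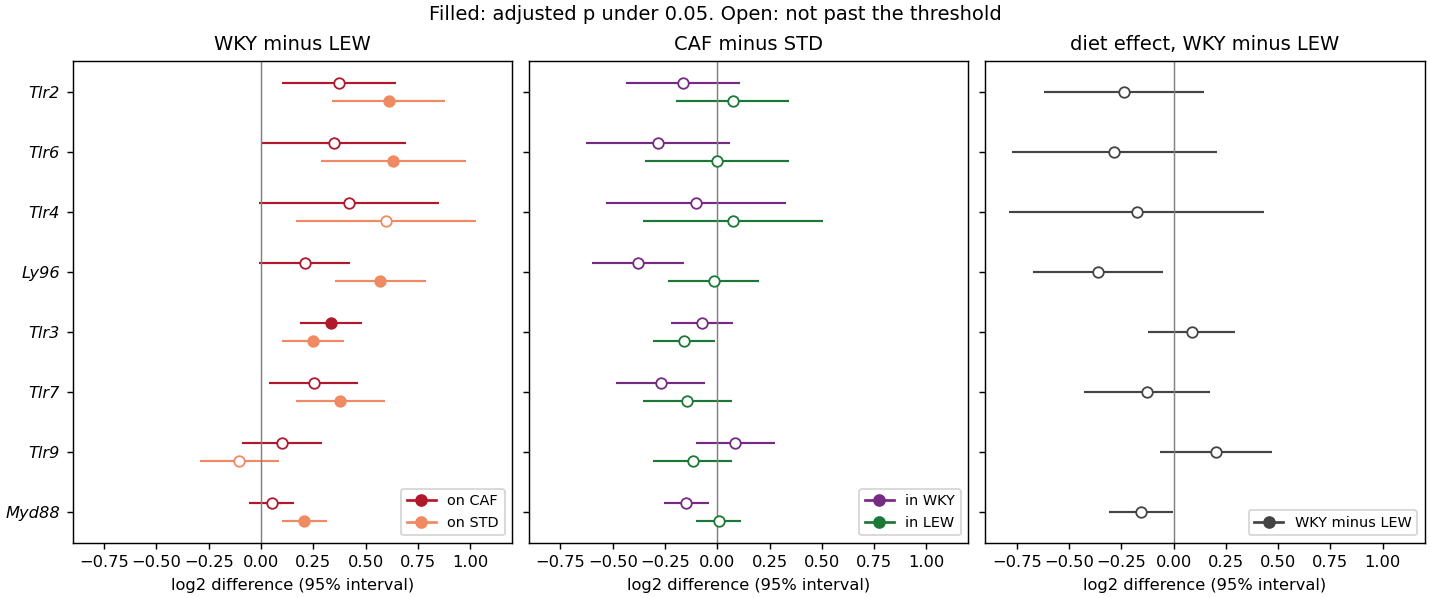
Differences in log2 value (x axis, point) with their 95% intervals (line) for the 8 genes, between strains (WKY minus LEW, left), between diets (CAF minus STD, middle) and as the diet effect in WKY minus that in LEW rats (right). Filled points have an adjusted p under 0.05, which 6 genes reached on STD and 1 on CAF, and none between diets.

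The diet itself moved no member past the threshold in either strain. CAF was compared with STD within WKY and within LEW rats, and 0% of all probe sets were called by limma in either strain, so the 0 of 8 members stand beside a background of none. At an unadjusted p under 0.05, 3 of the 8 members were lower on CAF than on STD in WKY rats, as were 4.79% of all probe sets. These were Ly96 (−0.38, unadjusted p = 0.00174, adjusted p = 0.259), Myd88 (−0.15, unadjusted p = 0.00921, adjusted p = 0.372) and Tlr7 (−0.27, unadjusted p = 0.0154, adjusted p = 0.423). Ly96 averaged 9.05 ± 0.28 on CAF and 9.43 ± 0.18 on STD in WKY rats (SD, n = 5 each), and the diets overlapped. In LEW rats Ly96 averaged 8.84 ± 0.11 on CAF and 8.86 ± 0.056 on STD (SD, n = 5 each). In LEW rats 1 of the 8 members, Tlr3, was lower on CAF at an unadjusted p under 0.05 (−0.16, adjusted p = 0.901), as were 3.04% of all probe sets. With 0 genes called, the 95% intervals give the bounds. In LEW rats the diet difference of Ly96 lay between −0.24 and 0.20 and that of Myd88 between −0.10 and 0.11, and in WKY rats that of Tlr4 lay between −0.53 and 0.33.

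Whether the diet effect differed between the strains was tested as an interaction, the diet effect in WKY minus that in LEW rats. No member and 0% of all probe sets passed. The lowest unadjusted p values among the members were those of Ly96 (−0.36, unadjusted p = 0.0242, adjusted p = 0.817) and Myd88 (−0.16, unadjusted p = 0.0456, adjusted p = 0.836), and 2.84% of all probe sets had an unadjusted p under 0.05 in that direction. That 6 members passed between the strains on STD and 1 on CAF is therefore not shown to be a difference between the diets, and both strain comparisons come from separate rats.

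The other genes of the pathway were taken from 4 lists by role, of which 56 of 66 genes had a probe set. Between the strains 15 were higher and 1 lower in WKY rats on CAF, where 4.24% of all probe sets were called higher and 3.34% lower, and 25 were higher and 3 lower on STD, where 5.88% were called higher and 5.38% lower. The median over the 56 was 0.14 on CAF and 0.20 on STD. None passed between the diets or in the interaction, where limma called 0 of all probe sets too. At an unadjusted p under 0.05, 2 of the 56 were higher and 8 lower on CAF than on STD in WKY rats, as were 4.01% and 4.79% of all probe sets. In LEW rats 1 was lower, as were 3.04% of all probe sets.

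**Figure D3:**
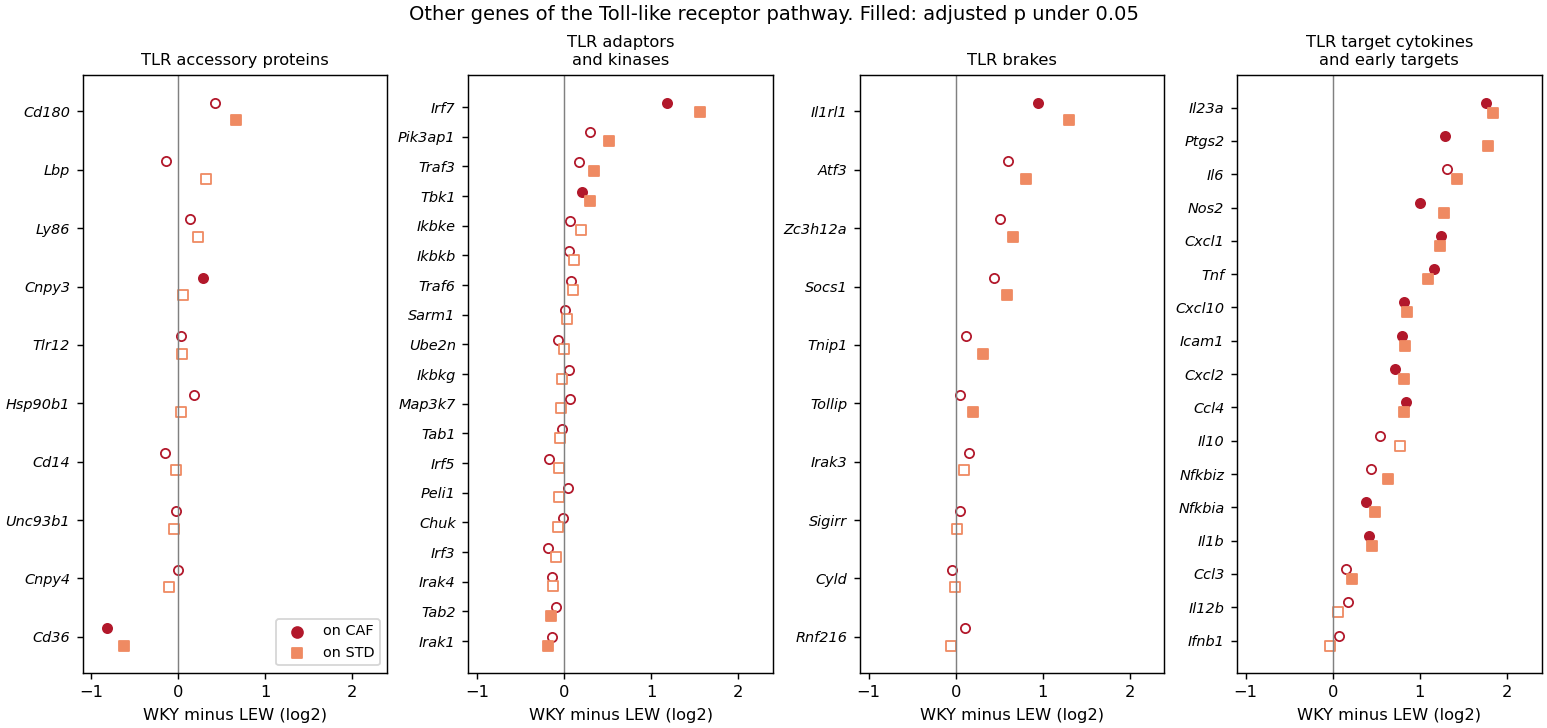
Difference between the strains (WKY minus LEW, log2, x axis) for 56 other genes of the pathway in 4 lists by role, on CAF (circles) and on STD (squares), filled where the adjusted p was under 0.05. The target genes on the right lie mostly well above 0, up to 1.76 on CAF and 1.85 on STD for Il23a, whereas most accessory proteins, adaptors and kinases lie near 0.

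Among 10 accessory proteins, 1 was higher and 1 lower in WKY rats on each diet. Of all probe sets 4.24% were called higher and 3.34% lower on CAF, and 5.88% and 5.38% on STD. The counts of all 4 lists stand beside these shares, and the count of this list is not read as a result about it. Cd180, a TLR4 homologue that B cells carry with MD-1, was higher on STD by 0.66 (adjusted p = 0.00150), with all 5 WKY rats above all LEW rats, and by 0.42 on CAF, where it did not pass (adjusted p = 0.0534). Cnpy3, a chaperone that several TLRs need to leave the endoplasmic reticulum, was higher on CAF by 0.29 (adjusted p = 0.00326) but not called on STD (0.06, adjusted p = 0.634). Cd36, a scavenger receptor that assists TLR2 and TLR6, was lower on both diets, by −0.82 on CAF (adjusted p = 2.07e-05) and −0.62 on STD (adjusted p = 3.35e-04), again without overlap of the strains.

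Among 19 adaptors and kinases, 2 were higher on CAF, and 4 were higher and 2 lower on STD. Irf7, the transcription factor that carries signals of TLR7 and TLR9 to type I interferon genes, showed the largest difference of this list. It had group means of 10.18 ± 0.30 in WKY and 9.00 ± 0.34 in LEW rats on CAF, and of 10.71 ± 0.36 in WKY and 9.15 ± 0.23 in LEW rats on STD (SD, n = 5 each). The differences were 1.18 on CAF (adjusted p = 1.68e-04) and 1.57 on STD (adjusted p = 4.76e-06), and the strains overlapped on neither diet. Tbk1, a kinase that activates IRF3, was higher by 0.21 on CAF (adjusted p = 0.0184) and 0.30 on STD (adjusted p = 7.75e-04). Its call on CAF was lost without WKY rat 2 or 5 or LEW rat 4 of that diet, at adjusted p values of 0.0530 to 0.0611. On STD, Pik3ap1, which links TLRs to PI3 kinase, was higher by 0.51 (adjusted p = 0.00539) and Traf3 by 0.34 (adjusted p = 0.0187). The call of Traf3 on STD was lost without WKY rat 2 or 5 or LEW rat 4 of that diet, at adjusted p values of 0.0516 to 0.0609. The MyD88-bound kinase Irak1 was lower there by −0.18 (adjusted p = 0.00982), as was Tab2 by −0.15 (adjusted p = 0.0481). The call of Tab2 was close to the threshold, and it was not followed on leaving out each rat. Of the other genes downstream of MyD88, Irak4 differed by −0.14 on CAF (adjusted p = 0.610) and −0.13 on STD (adjusted p = 0.571). Traf6 differed by 0.08 on CAF (adjusted p = 0.364) and 0.11 on STD (adjusted p = 0.151). These were chosen after their values were seen.

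Among 10 brakes of TLR signalling, 1 was higher in WKY rats on CAF and 6 on STD, and none was lower. Il1rl1, which encodes the IL-33 receptor and whose product sequesters MyD88 in the mouse, was higher by 0.95 on CAF (adjusted p = 3.04e-04) and by 1.30 on STD (adjusted p = 6.09e-06), with no overlap between the strains. Its level was low, with group means of 6.80 in WKY and 5.85 in LEW rats on CAF. On STD they were 7.14 and 5.84, against array medians of 6.83 to 6.90. On STD the RNase gene Zc3h12a was higher by 0.66 (adjusted p = 0.0107), Tollip, which binds IRAK1, by 0.20 (adjusted p = 0.0123), Socs1 by 0.59 (adjusted p = 0.0256) and the repressor Atf3 by 0.81 (adjusted p = 0.0313). All WKY rats were above all LEW rats for the first 3 of these but not for Atf3. The adjusted p of Atf3 went over 0.05 on leaving out any rat on STD but WKY rat 3 and LEW rats 2 and 3, to at most 0.0887. That of Socs1 did so without WKY rat 2 or 4 or LEW rat 1 or 5 on STD, at 0.0577 to 0.0777.

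Among 17 cytokines and early targets of the TLRs, 11 were higher in WKY rats on CAF and 14 on STD, and none was lower. The median difference over the 17 was 0.80 on CAF and 0.81 on STD, larger than that over the 8 receptors and adaptors, though the 2 sets were not tested against each other. Tnf, a cytokine of activated monocytes, had means of 12.98 ± 0.20 in WKY and 11.81 ± 0.45 in LEW rats on CAF, and of 13.22 ± 0.15 in WKY and 12.12 ± 0.30 in LEW rats on STD (SD, n = 5 each). Its differences were 1.16 on CAF (adjusted p = 1.22e-04) and 1.10 on STD (adjusted p = 1.74e-04). Il23a, a subunit of IL-23, was higher by 1.76 and 1.85 on CAF and STD, Ptgs2 (cyclooxygenase 2) by 1.29 and 1.78, Nos2 (inducible nitric oxide synthase) by 1.00 and 1.28, the adhesion molecule gene Icam1 by 0.80 and 0.82, and Il1b by 0.41 and 0.45. Of these, the strains overlapped for Ptgs2 on CAF and otherwise on neither diet. The genes that passed on neither diet were Il10, Il12b and Ifnb1, and Ifnb1 differed by 0.07 on CAF and −0.03 on STD. Earlier results of these arrays had already shown several of the target genes higher in WKY rats, so the count of this list is not independent of them.

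Markers of other blood cells differed between the strains alongside the members. For each array a marker score was formed as the mean deviation, in log2 units, of the markers of a cell type from their means over the 20 rats. A score is named after its list, and how specific the markers are to that cell type was not tested. Beside the counts of markers, here and in the other lists, stand 4.24% of all probe sets called higher and 3.34% lower on CAF. On STD these shares were 5.88% and 5.38%. The 12 neutrophil markers were higher in WKY rats in 5 cases on CAF and 10 on STD and lower in none, for instance S100a9 by 1.18 on CAF (adjusted p = 0.0172) and 1.95 on STD (adjusted p = 1.52e-04). Their score ran from −0.11 to 0.92 in WKY and from −0.94 to 0.22 in LEW rats on CAF, and from −0.11 to 1.40 in WKY and from −1.29 to −0.59 in LEW rats on STD, so that it separated the strains on STD. Of 10 NK cell markers, 7 were higher and 1 lower in WKY rats on CAF, and 8 were higher and 1 lower on STD. The NK cell score ran from 0.09 to 0.24 in WKY and from −0.55 to −0.02 in LEW rats on CAF, and from 0.16 to 0.61 in WKY and from −0.45 to 0.00 in LEW rats on STD, without overlap. Of 14 monocyte markers, 3 were lower in WKY rats on CAF, and 2 were higher and 3 lower on STD. The monocyte score ran from −0.47 to −0.03 in WKY and from −0.01 to 0.21 in LEW rats on CAF, and from −0.14 to 0.13 in WKY and from 0.02 to 0.18 in LEW rats on STD. No marker of these 3 lists was at 0, since the log2 values of the arrays have no zero.

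**Figure D4:**
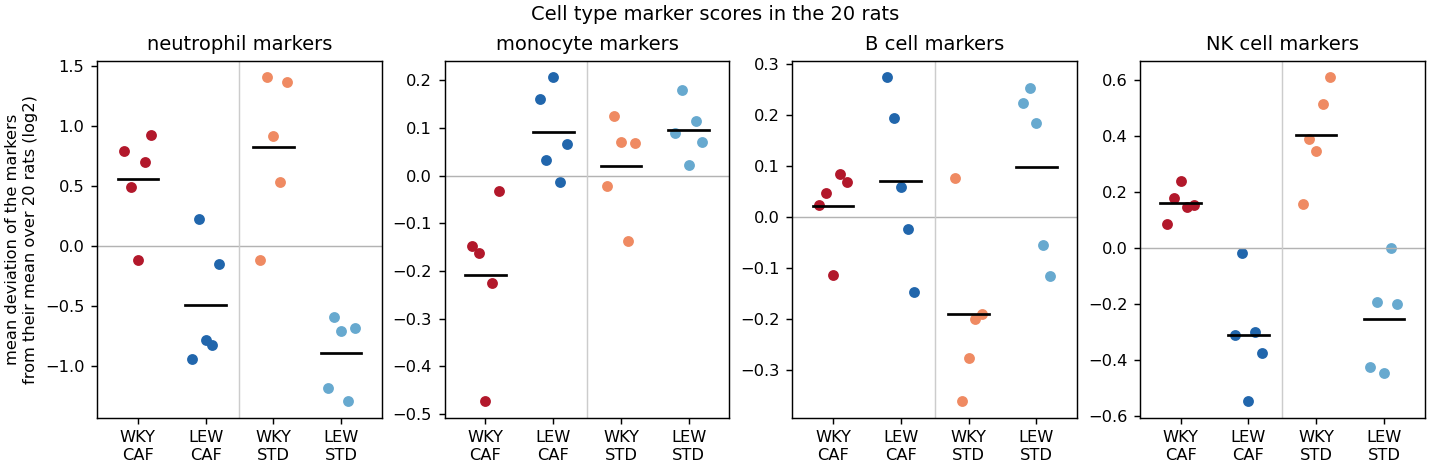
Marker scores of 4 blood cell types (y axis, mean deviation of the markers from their mean over 20 rats, log2) in each rat (points) with the group mean (bar), WKY left of LEW on CAF and on STD. The neutrophil score of the LEW rats on STD, −1.29 to −0.59, lies below that of every WKY rat, and the lowest monocyte score, −0.47, is that of WKY rat 3 on CAF.

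Other marker lists were counted in the same way, and no correlation of the members with their scores was computed. Of 9 B cell markers, 1 was lower in WKY rats on CAF and 3 on STD, and their score ran from −0.11 to 0.08 in WKY and from −0.15 to 0.27 in LEW rats on CAF, and from −0.36 to 0.08 in WKY and from −0.12 to 0.25 in LEW rats on STD. Of 9 plasmacytoid dendritic cell markers, 2 were higher and 1 lower in WKY rats on CAF, and 1 was higher and 2 lower on STD. Their score ran from 0.03 to 0.17 in WKY and from −0.15 to 0.02 in LEW rats on CAF, and from −0.05 to 0.13 in WKY and from −0.13 to −0.05 in LEW rats on STD. Of 12 T cell markers, 3 were lower in WKY rats on CAF and 7 on STD, and none was higher. The T cell score ran from −0.30 to −0.04 in WKY and from 0.04 to 0.23 in LEW rats on CAF, and from −0.33 to 0.07 in WKY and from 0.12 to 0.27 in LEW rats on STD. Of 9 erythroid markers, 3 were lower in WKY rats on CAF and 2 on STD, with a score of −1.21 to 0.01 in WKY and 0.24 to 1.42 in LEW rats on CAF, and of −1.07 to −0.06 in WKY and −0.902 to 1.196 in LEW rats on STD. Of 4 platelet markers, 0 were called on CAF and 3 were lower in WKY rats on STD, with a score of −0.44 to 0.06 in WKY and 0.02 to 0.33 in LEW rats on CAF, and of −0.38 to −0.13 in WKY and −0.07 to 0.67 in LEW rats on STD.

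Within groups, the members that passed the threshold with the neutrophil score were Tlr4, Tlr6 and Myd88. Values and scores were taken as deviations from the group means over the 20 rats, and 24 relations of 8 genes with 3 scores were tested by permutation within groups. With the neutrophil score, r was 0.71 for Tlr4 (rho 0.70, adjusted p = 0.0158 for r and 0.0181 for rho), 0.70 for Tlr6 (rho 0.66, adjusted p = 0.0157 and 0.0181) and 0.69 for Myd88 (rho 0.68, adjusted p = 0.0157 and 0.0181). Without the 2 rats farthest from the median, WKY rat 1 on STD and WKY rat 3 on CAF, r was 0.58, 0.56 and 0.64. Within the 10 WKY rats r was 0.83, 0.90 and 0.80, and within the 10 LEW rats 0.53, 0.24 and 0.63. Whether r differed between the strains was not tested. For Ly96 r was 0.52 (adjusted p = 0.0708), for Tlr2 0.48 (adjusted p = 0.0940), for Tlr9 0.15 (adjusted p = 0.671) and for Tlr7 0.04 (adjusted p = 0.950). Tlr3 went the other way, with an r of −0.44 (adjusted p = 0.144).

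**Figure D5:**
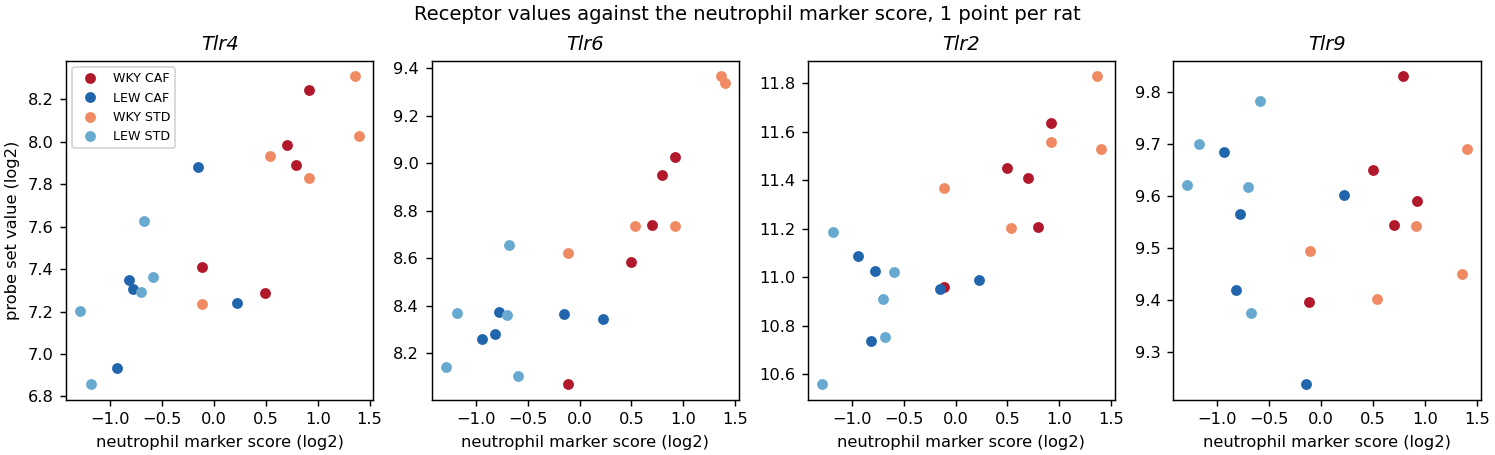
Probe set values (log2, y axis) of Tlr4, Tlr6, Tlr2 and Tlr9 against the neutrophil marker score (log2, x axis), with 1 point per rat coloured by group. Tlr4 and Tlr6 rise with the score across the 20 rats, and Tlr9 shows no such course (r of the deviations from the group means 0.71, 0.70 and 0.15).

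With the monocyte score, the deviations of Ly96 (r = 0.74, rho 0.68, adjusted p = 0.0271 for r and 0.0254 for rho), Tlr2 (r = 0.68, rho 0.67, adjusted p = 0.0201 and 0.0181) and Tlr9 (r = 0.57, rho 0.62, adjusted p = 0.0452 and 0.0418) passed by both measures. Tlr7 passed by r (0.58, adjusted p = 0.0452) but not by rho (0.56, adjusted p = 0.0746). Tlr6 (r = 0.60, adjusted p = 0.0708) and Myd88 (r = 0.51, adjusted p = 0.0708) did not pass, and neither did Tlr4 (r = 0.27) and Tlr3 (r = −0.15). No member passed with both the neutrophil and the monocyte score. Whether a member followed 1 of these scores more than the other was not tested. Without the 2 rats farthest from the median, WKY rats 3 and 5 on CAF, r was 0.55 for Ly96, 0.49 for Tlr2, 0.57 for Tlr9 and 0.49 for Tlr7. Within the WKY rats r was 0.76 for Ly96, 0.83 for Tlr2, 0.70 for Tlr9 and 0.76 for Tlr7, and within the LEW rats 0.71, 0.36, 0.49 and 0.33. With the NK cell score Tlr7 passed by r (−0.57, adjusted p = 0.0452) and not by rho (−0.53, adjusted p = 0.0838), and r was −0.35 without 2 LEW rats.

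With the neutrophil score as a covariate in the fit, 0 of the 8 members were called on STD and 1 on CAF, Tlr3 (0.44, adjusted p = 0.00465). Calls over all probe sets fell with this score on both diets too, by the counts given at the end, so the loss is not particular to the members. The differences of Tlr4 and Tlr6 then turned to −0.31 and −0.08 on STD and to −0.14 and −0.09 on CAF, that of Myd88 was 0.02 on STD and turned to −0.06 on CAF, and that of Tlr2 on STD was 0.23 (adjusted p = 0.820). Tlr3 on STD kept its direction at 0.43 (adjusted p = 0.0778). With the monocyte score as a covariate, 4 members were called on CAF, namely Tlr2 (0.78, adjusted p = 0.00287), Ly96 (0.56, adjusted p = 0.00409), Tlr7 (0.52, adjusted p = 0.0181) and Tlr6 (0.81, adjusted p = 0.0210), and Tlr3 was not (adjusted p = 0.127). The share of all probe sets called in this fit is not given here. The gain is therefore not shown to be particular to the members. With the NK cell score, which also lowered the calls over all probe sets, 1 member was called on STD and 2 on CAF. With the erythroid score Tlr3 was called on neither diet (0.27 and adjusted p = 0.114 on CAF, 0.21 and adjusted p = 0.109 on STD). The neutrophil score on STD, the monocyte and erythroid scores on CAF and the NK cell score on both diets do not overlap between the strains, so such a fit shares the difference between the score and the strain, and composition and strain cannot be told apart there. Beyond these fits, the part of cell composition in the members' differences was not tested.

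How members varied together beyond strain and diet was tested on deviations from the group means. Of 10 pairs of known receptor partners or neighbours, 7 could be measured, and none of the 7 passed by permutation (adjusted p of r and of rho all over 0.16). The largest r was that of Tlr2 with its partner Tlr6 (0.53, rho 0.44, unadjusted p = 0.0502, adjusted p = 0.181), which was 0.73 within WKY and 0.02 within LEW rats. Tlr4 with Ly96 had an r of 0.42 (rho 0.42, adjusted p = 0.234), Tlr7 with Tlr9 0.45 (rho 0.54, adjusted p = 0.181 for r and 0.166 for rho), Tlr2 with Myd88 0.46 (adjusted p = 0.181), Tlr3 with Tlr7 0.32 (adjusted p = 0.291), Tlr4 with Myd88 0.28 (adjusted p = 0.311), and Tlr4 with Cd14 0.10 (adjusted p = 0.677). Within the WKY rats r was 0.67 for Tlr7 with Tlr9, 0.61 for Tlr2 with Myd88, 0.54 for Tlr4 with Myd88 and 0.51 for Tlr4 with Ly96, and within the LEW rats 0.26, 0.34, 0.03 and 0.17. Tlr3 with Tlr7 had 0.05 within the WKY rats and 0.64 within the LEW rats. Whether r differed between the strains was not tested. No pair passed within either strain (adjusted p of r at least 0.188 in WKY and 0.483 in LEW rats).

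The genes most like the members were listed as a description, for the 4 members of the smallest adjusted p between the strains on CAF and with no test, since they were picked as the highest of all correlations over the 20 arrays. Tlr2 was most like Fas, a death receptor gene (r = 0.93), and Igsf6 (r = 0.92), and Tlr7 was most like Tfec, a myeloid transcription factor gene (r = 0.94), and Samsn1 (r = 0.92). Tlr6 was most like Srgn, the proteoglycan of myeloid granules (r = 0.93), and Klra2 (r = 0.89), and Tlr3 was most like Tex10 and Gkn1 (r = 0.88 each). On deviations from the group means, r was 0.84 for both genes beside Tlr2, 0.92 and 0.83 beside Tlr7, 0.87 and 0.77 beside Tlr6, and 0.53 and 0.72 beside Tlr3, so part of the likeness of Tlr3 and Tex10 lay in the difference between groups.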

How the data were processed

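The authors deposited 1 table of log2 probe set values, normalised between the arrays. The methods name RMA for this step and the submitters' processing notes name MAS5, and neither gives a version. The values were used as deposited, with groups from the sample labels and no filter. The most similar arrays correlated at 0.997 over probe sets, and no array was a copy of another. The number of arrays limits the precision.

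For the differences, limma 3.58.1 (R 4.3.3) fitted a mean for each group over all 20 arrays. The moderation used no trend and had 3.67 prior beside 16 residual degrees of freedom. P values were adjusted after Benjamini and Hochberg over the 28826 probe sets of each comparison, and an adjusted p under 0.05 is a call. In simulated data, 89 of 100 probe sets changed 1.5-fold were recovered on CAF and 92 on STD, and 34 and 36 of those changed 1.2-fold. Of the unchanged probe sets, 6 were called on CAF and 10 on STD. The simulated noise was independent between probe sets, and those changed were picked at random. The rates are therefore not those of a gene of wide spread, such as Tlr4. Only 100 probe sets per fold were changed among the 28826, all higher in WKY rats, a smaller share than was called in the data. The adjusted p depends on that share, so the rates are not those of the comparisons here. Relations were tested with 100000 two-sided permutations within groups.

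The members and lists were chosen with earlier results of these data known. Named were all members, up to 5 called genes per pathway list and comparison by adjusted p, Cd14, and the 2 genes most correlated with each of 4 members. Gene names came from the platform annotation (306 probe sets with several symbols and 13311 not listed were left unnamed), promoters from RefSeq, which held 9 of the 10 members. Of each promoter, the bases before the start were kept. Alternatives were other scalings, array weights, a trend, a filter, only the groups compared, a replicate block, marker scores as covariates and leaving out each rat.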

Additional observations from a re-analysis of the deposited data

Results flagged for a closer look

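Among 112 groups of 5 rats tested for a single rat far from the others, 4 held one, and chance alone marks about 5% of groups. Tlr3 in WKY rats on CAF was 6.12 in rat 1, below the next lowest value of 6.36 in that group. Tlr3 in LEW rats on CAF was 5.85 in rat 2, below the next lowest of 6.02, and rat 2 is among the 4 arrays of high heat shock genes. Without those arrays the strain difference of Tlr3 on CAF was 0.29 (adjusted p = 0.00678). Nos2 in LEW rats on STD was 11.19 in rat 4, below the next lowest of 12.18, and Ptgs2 in WKY rats on CAF was 10.17 in rat 3, below the next lowest of 10.79. No member's diet effect differed between the strains by the interaction test.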

How the results depend on the processing

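The deviations of same-numbered rats of 2 groups correlated over 0.1 in 1 of 5 pairs in 3 of the comparisons. For the diets in LEW rats they did so in 3 of 5 pairs, with a mean of 0.19 against −0.048 for differently numbered rats. In the other comparisons the means were 0.0025 to 0.053, against −0.013 to −0.00036. The main fit did not pair the rats by number, and whether the numbers mark a shared structure was not tested. With the replicate number as a block, 7 members were called on STD instead of 6, since Tlr4 passed (adjusted p = 0.00849), 1 on CAF, and 1 probe set instead of 0 between the diets in WKY rats.

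The number of members called between the strains on CAF, 1 in the report, was 2 with array weights, 4 with the monocyte, 2 with the B cell, 0 with the erythroid and 2 with the NK cell score as covariate, and 1 to 4 on leaving out each rat. On STD, 6 in the report, it was 0 with the neutrophil and 1 with the NK cell score, and 4 to 6 on leaving out each rat. Over both diets, 7, it was 1 with the neutrophil and 2 with the NK cell score, and 7 whichever rat was left out. Of the other pathway genes, 16 were called on CAF, and 25 with array weights, 6 with the neutrophil, 9 with the erythroid and 5 with the NK cell score, and 12 to 19 on leaving out each rat. On STD 28 were called, 1 with the neutrophil and 3 with the NK cell score, and 20 to 27 on leaving out each rat. Over both diets 32 were called, 4 with the neutrophil, 20 with the erythroid and 8 with the NK cell score, and 29 to 31 on leaving out each rat. Of all probe sets 2185 were called on CAF, 985 with the neutrophil and 720 with the NK cell score. On STD 3247 were called, 455 and 397 with these scores, and over both diets 4947, 915 and 758. For the other settings the counts over all probe sets between the strains are not given here. Leaving out WKY rat 4 on CAF gave 1 call between the diets in WKY rats.

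Directions turned as follows. With the neutrophil score the strain differences were −0.14 for Tlr4, −0.090 for Tlr6 and −0.062 for Myd88 on CAF, −0.31 for Tlr4, −0.083 for Tlr6 and −0.0057 for Traf3 on STD, and −0.22 for Tlr4, −0.086 for Tlr6, −0.020 for Myd88 and −0.022 for Traf3 over both diets. The diet differences with it were 0.036 for Tlr4 in WKY rats, −0.015 for Tlr2, −0.14 for Tlr4 and −0.036 for Myd88 in LEW rats, and the interaction of Tlr4 was 0.17. With the B cell score Tlr9 was 0.048 on STD and 0.087 over both diets, Tlr4 0.15 and Tlr9 −0.025 between the diets in WKY rats, and the interaction of Tlr4 0.11. With the monocyte score the diet differences in WKY rats were 0.15 for Tlr2, 0.094 for Tlr4 and 0.067 for Tlr6, that of Tlr6 in LEW rats 0.0055, the interactions 0.068 for Tlr2, 0.016 for Tlr4, 0.062 for Tlr6 and 0.076 for Tlr7, and Tlr9 over both diets 0.14. Tlr9 over both diets was 0.057 with the NK cell score, 0.068 with the erythroid score and 0.041 without the arrays of high heat shock genes. Tlr4 between the diets in WKY rats was 0.026 with the NK cell score. Between the diets in LEW rats Myd88 was −0.022 with the erythroid score, −0.0069 with median centring and −0.00080 with array weights, which gave 0.0082 for Ly96. On leaving out each rat, differences that changed sign ran, between the diets in LEW rats, from −0.044 to 0.020 for Ly96, −0.0091 to 0.15 for Tlr2, −0.021 to 0.038 for Myd88, −0.060 to 0.18 for Tlr4 and −0.057 to 0.080 for Tlr6, from −0.26 to 0.016 for Tlr4 in WKY rats, and from −0.034 to 0.024 for Tlr9 over both diets. None of these had passed, apart from the 6 called on STD or over both diets that turned with the neutrophil score. The cause was not tested.

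On STD, Tlr3 also missed the threshold with median centring (adjusted p = 0.0505), quantile normalisation (0.0538) and only the groups compared (0.0576), Tlr6 with the B cell score (0.132) and without WKY rats 2 or 5 (0.0510 to 0.0539), and Tlr7 with the erythroid score (0.0621) and without WKY rat 2 or LEW rat 4 (0.0545 to 0.0555). A filter on the probe sets of the lowest means and a trend in the prior changed no call of a member.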
